A study of Mus musculus with 2 samples.

Results

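*Epcam*, the cadherins *Cdh1* and *Cdh2*, the keratins *Krt7*, *Krt8*, *Krt18* and *Krt19*, and the claudins *Cldn3*, *Cldn4* and *Cldn7* are described here in single cells of 2 mouse small cell lung cancers. These 10 genes were chosen by name as keratins, claudins and adhesion genes of epithelium, and all 10 are among the 27998 genes listed in the deposited matrices. Each had UMIs (unique molecular identifiers, the counted molecules) in retained cells of both tumors. A cell was retained when it had more than 500 detected genes.

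One tumor was cut out of the lung of each of 2 TKO mice, dissociated and sorted, and each gave 1 10x Chromium library, called TKO1 and TKO2. Both mice carried Rb-/-, Trp53-/- and Rbl2-/- alleles (*Rbl2* encodes p130) with the Rosa26membrane-Tomato or membrane-GFP reporter, on a mixed C57BL/6, 129/SVJ and 129/SvOla background. Tumors had been induced with Adeno-CMV-cre, a virus whose promoter drives Cre in whichever lung cells it infects, and were collected 7 months later, at 8 to 9 months of age. With 1 library per tumor there is no replicate, so no p-value is given, and what sets the tumors apart cannot be told from what sets 2 mice or 2 libraries apart. All 95% intervals cover counting error only.

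Keratins are intermediate filament proteins that polymerize only as pairs of a type I chain (*Krt18* and *Krt19*) with a type II chain (*Krt7* and *Krt8*), and these 4 are the keratins of simple epithelia such as the airway lining. Claudins are membrane proteins of the tight junction that seal the space between neighboring epithelial cells, E-cadherin (*Cdh1*) and N-cadherin (*Cdh2*) hold cells together at adherens junctions, and EpCAM is an epithelial adhesion molecule that is often used to capture carcinoma cells. Small cell lung cancer is a carcinoma with neuroendocrine features, so its cells can carry epithelial and neuronal adhesion proteins side by side.

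By GENCODE M21 (GRCm38), all 10 are protein-coding genes. On chromosome 15 lie *Krt7* (101411043 to 101430313, plus strand), *Krt8* (101996698 to 102004482, minus strand) and *Krt18* (102028180 to 102032027, plus strand). *Krt8* and *Krt18* are direct partners in the filament, and only 23.7 kb separates them, while *Krt19* lies apart on chromosome 11 (100140810 to 100148665, minus strand). *Cldn3* (134986214 to 134987472, plus strand) and *Cldn4* (134945119 to 134946934, minus strand) are separated by 39.3 kb on chromosome 5, and *Cldn7* is on chromosome 11 (69964779 to 69967885, plus strand). A pseudogene, Krt8-ps, is annotated on chromosome 7 and is not in the deposited gene list, and whether its reads were counted as *Krt8* was not tested.

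The DNA before a RefSeq start is shown for 4 genes, from the 6 whose levels moved together across cells and clusters of TKO2, as given further on. Each is the 250 bases before the annotated start in RefSeq (GRCm38.p6), 5′ to 3′ on the strand of the gene, with the letters CACCTG or their reverse complement CAGGTG in capitals. Zeb and Snail family repressors are known to bind such E-boxes in promoters of epithelial genes. *Epcam* is at chr17:87635729-87635978 (plus), *Krt8* at chr15:102004343-102004592 (minus), *Krt18* at chr15:102027966-102028215 (plus), and the second start of *Cldn7* at chr11:69965171-69965420 (plus). These RefSeq starts can differ from the GENCODE spans given above. Parts of the *Krt8* and *Krt18* stretches and all of the *Cldn7* stretch lie inside those spans, as do the matches of *Krt8* and *Cldn7*. Not shown are *Krt7*, which has a match 44 bases upstream of its RefSeq start, also inside its GENCODE span, *Cldn3* and the first start of *Cldn7*. The 250 bases upstream of the latter pair hold no match, so the stretches shown do not stand for all of these genes.
Epcam: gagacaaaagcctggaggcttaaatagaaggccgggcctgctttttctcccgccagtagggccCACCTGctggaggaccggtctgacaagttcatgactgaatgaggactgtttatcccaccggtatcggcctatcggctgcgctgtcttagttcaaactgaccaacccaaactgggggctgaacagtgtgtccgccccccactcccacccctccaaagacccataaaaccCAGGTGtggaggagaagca
Krt8: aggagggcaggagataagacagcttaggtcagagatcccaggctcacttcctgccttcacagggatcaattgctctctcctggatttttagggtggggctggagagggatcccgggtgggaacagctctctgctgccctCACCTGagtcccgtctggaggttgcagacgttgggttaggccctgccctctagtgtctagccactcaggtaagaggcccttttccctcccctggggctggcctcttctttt
Krt18: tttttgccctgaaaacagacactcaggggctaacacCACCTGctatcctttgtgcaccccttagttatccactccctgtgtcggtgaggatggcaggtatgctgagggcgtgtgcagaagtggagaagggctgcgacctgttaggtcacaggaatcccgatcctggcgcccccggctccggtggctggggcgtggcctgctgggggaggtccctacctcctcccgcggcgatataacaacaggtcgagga
Cldn7: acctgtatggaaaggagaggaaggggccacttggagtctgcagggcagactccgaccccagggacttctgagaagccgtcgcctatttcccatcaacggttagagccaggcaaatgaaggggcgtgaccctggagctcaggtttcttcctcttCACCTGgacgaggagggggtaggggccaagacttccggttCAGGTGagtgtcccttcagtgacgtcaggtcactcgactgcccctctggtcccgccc

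Windows of 300 bases (250 before to 50 after the start) were found for 7 of the 10 genes, and none was found for *Cdh1*, *Cdh2* and *Krt19*. On either strand, CACCTG was in 7 of the 8 windows of these genes and in at least 1 window of all 7 genes, against 20.2% of all 32851 windows and 22.6% of all genes with a window. *Cldn4*, *Cldn7* and *Epcam* held 2 matches each in a window, and *Krt7*, *Krt8*, *Krt18* and *Cldn3* held 1. The matches nearest upstream of a start lay 14 bases upstream of that of *Cldn4* and 19 bases upstream of that of *Epcam*. Of 6 other sets of letters searched, AACCNGTT and AACNNGTT were in no window of these genes (2.09% and 4.2% of all windows), and TGACTCA was in 1 window, that of *Cldn4* (5.20%). AGGAAG was in 4 windows (35.4%), GGGCGG in 5 (35.7%) and GGGGNGGGG, which can overlap GGGCGG, in 2 (22.4%). The motifs were searched after the levels were known, and a match of letters shows neither binding nor its effect.

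The library of TKO1 held 4514 barcodes and 5285038 UMIs, of which 3193 barcodes were retained, and that of TKO2 held 3816 barcodes and 8291430 UMIs, of which 3568 were retained. Cells were clustered in each tumor without the 10 genes or any listed related gene among the variable genes, and clusters were named from marker genes. Neuroendocrine-like cells, the tumor cells by their markers, numbered 2169 in 5 clusters of TKO1 (67.9% of retained cells) and 3379 in 8 clusters of TKO2 (94.7%). Each of these clusters had 9 to 14 of 16 neuroendocrine markers at 2-fold or more over the clusters with immune markers. TKO1 clusters 2 and 4, with 821 cells (25.7%), were left out and stay unnamed. Cluster 2 (499 cells) had 3 ciliated markers at 4-fold beside 14 neuroendocrine ones at 2-fold, and thus met both definitions. Cluster 4 (322 cells) had 14 neuroendocrine markers at 2-fold, but a fibroblast marker was among its top 10 genes and no neuroendocrine marker was. That step was added after the data were seen, and no cluster of either tumor had a neuroendocrine marker among its top 10 genes. Of the rest, 106 cells of TKO1 were club-like, 97 cells of TKO1 and 122 of TKO2 were macrophage-like (5 T or NK markers were also high in the latter), and 67 cells of TKO2 (cluster 9) had both club and neuroendocrine markers and stay unnamed. The libraries share 22 barcodes, spread over clusters. Ribosomal protein genes took 10.6% of UMIs in neuroendocrine-like cells of TKO1 and 23.1% in those of TKO2.

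In the neuroendocrine-like cells, the keratins, the claudins, *Epcam* and *Cdh1* were all higher in TKO1 than in TKO2, and *Cdh2* was nearly level. UMIs were summed over 2169 cells of TKO1 and 3379 of TKO2 and given as CPM, the UMIs of a gene per 1000000 UMIs of those cells. At least 2-fold higher in TKO1 were 9 of the 10 genes, beside 30.2% of 12723 genes with at least 10 UMIs, and 0 were at least 2-fold lower, beside 11.7%. The median log2 ratio of TKO1 over TKO2 was 2.27 for the 10 genes and 0.36 for all genes. Relative to all genes the median of the 10 was thus 1.91. With edgeR's TMM factors the split of all genes changed from 3847 higher and 1487 lower to 2833 and 2266, the median of all genes to 0.01, and the count of 9 was unchanged.

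*Epcam* had 1319.7 CPM (1281 to 1359.7) in TKO1 and 414 CPM (399.7 to 429) in TKO2, a log2 ratio of 1.67 (1.61 to 1.74). It lies on chromosome 17 (87635979 to 87651129, plus strand), while *Cdh1* is on chromosome 8 (106603351 to 106670246, plus strand) and *Cdh2* on chromosome 18 (16588877 to 16809246, minus strand). *Cdh1*, which encodes E-cadherin, had 275 CPM (258 to 294) and 17.1 CPM (14.4 to 20.3), a log2 ratio of 4.01 (3.74 to 4.28). *Cdh2*, which encodes N-cadherin, had 59.6 CPM (51.5 to 68.5) and 49.5 CPM (44.7 to 54.7). Its log2 ratio of 0.27 (0.01 to 0.52) was -0.090 with TMM factors, so no direction is drawn for it. The ratio of *Cdh1* to *Cdh2* UMIs was 4.63 (3.96 to 5.43) in TKO1 and 0.346 (0.282 to 0.423) in TKO2. Such ratios of UMIs are used here to compare cells with cells, and are not levels per length. Over single clusters this one ran from 1.78 to 5.73 in TKO1 and from 0.0196 (1 UMI of *Cdh1*) to 1.24 in TKO2, with no overlap of the values. The intervals of the nearest clusters did overlap, at 1.04 to 3.11 in cluster 6 of TKO1 and 0.767 to 2.00 in cluster 0 of TKO2.

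All 4 keratins were higher in TKO1. The type II chains *Krt7* and *Krt8* had 2124 CPM (2075 to 2175) and 1470.0 CPM (1429 to 1512) in TKO1, against 499.5 CPM (484 to 516) and 279.6 CPM (268 to 292) in TKO2. Their log2 ratios were 2.09 (2.03 to 2.15) and 2.39 (2.32 to 2.47). The type I chain *Krt18* had 3018 CPM (2959 to 3078) and 170.3 CPM (161 to 179.7), with a larger log2 ratio of 4.15 (4.06 to 4.23). *Krt19*, the other type I chain, had 49.2 CPM (41.9 to 57.4) in TKO1 and 6 UMIs in TKO2 (0.773 CPM, 0.284 to 1.68), a log2 ratio of 5.99 (4.84 to 7.46). The partners *Krt18* and *Krt8* therefore stood in different proportion, with 2.05 UMIs of *Krt18* for each of *Krt8* in TKO1 (1.98 to 2.13) and 0.609 in TKO2 (0.568 to 0.652). Over single clusters this ratio ran from 1.36 to 2.28 in TKO1 and from 0.512 to 0.863 in TKO2, with no overlap of the values. The intervals of the nearest clusters did overlap. That of cluster 6 of TKO1 began at 1.23, and that of cluster 3 of TKO2 (44 and 51 UMIs) ended at 1.32. Those of clusters 1, 2 and 6 of TKO2 also passed 1.23, while those of clusters 0, 4, 5 and 7 ended at 0.795 or lower.

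The claudins followed the same direction. *Cldn3* had 623 CPM (596 to 651) in TKO1 and 168 CPM (159 to 177) in TKO2, a log2 ratio of 1.89 (1.79 to 2.00). *Cldn7* had 519.8 CPM (495 to 545) and 117 CPM (109.8 to 125), a log2 ratio of 2.15 (2.03 to 2.27). *Cldn4*, the neighbor of *Cldn3* on chromosome 5, had 95.3 CPM (85.0 to 106) and 5.80 CPM (4.23 to 7.76), the largest log2 ratio of the 3, 4.04 (3.58 to 4.52). The ratio of *Cldn4* to *Cldn3* UMIs was 0.153 (0.135 to 0.172) in TKO1 and 0.0346 (0.0251 to 0.0466) in TKO2, while that of *Cldn7* to *Cldn3* was 0.834 (0.782 to 0.890) and 0.700 (0.642 to 0.762).

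**Figure D1:**
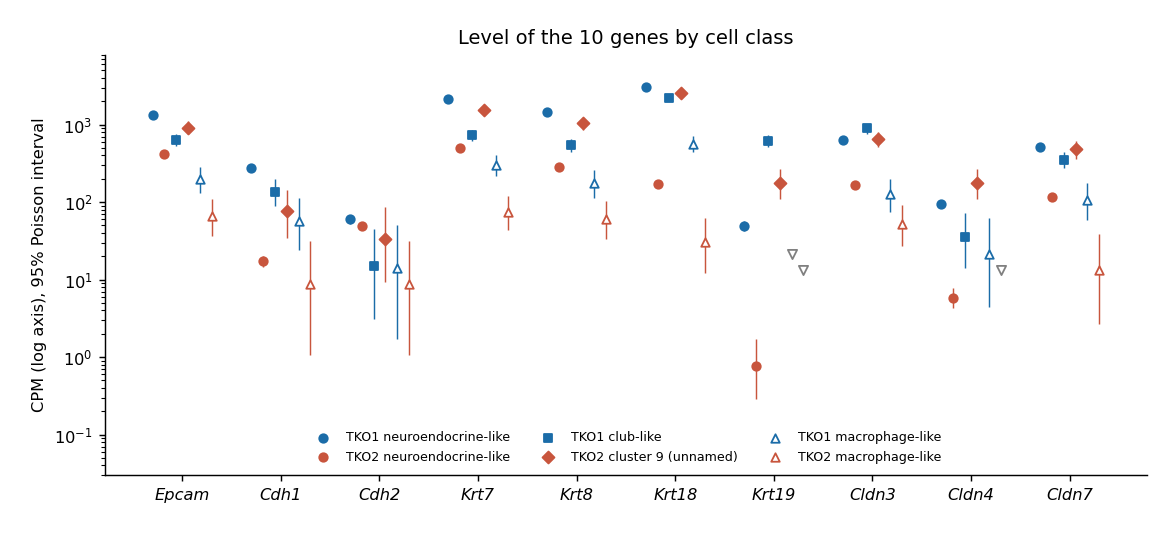
CPM on a log axis for each of the 10 genes, by tumor and cell class, with 95% Poisson intervals; downward triangles mark the limit of 3 UMIs where 0 UMIs were counted. Neuroendocrine-like cells of TKO1 lie above those of TKO2 for each gene, narrowly for Cdh2 (59.6 against 49.5 CPM, an order that TMM factors reverse), and Krt19 is highest in club-like cells (612 CPM).

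The UMIs of macrophage-like cells serve here as a background for these levels, because such cells should not express the genes. Whether that background is free RNA in droplets was not tested. In TKO1 the macrophage-like cells held 12.0% to 23.7% of the neuroendocrine-like CPM for the 9 genes with UMIs there, and 0 UMIs of *Krt19*. Markers of the tumor cells were carried at like shares, with 19.7% for *Calca*, 21.5% for *Chgb*, 20.9% for *Scg5* and 15.1% for *Resp18*. In TKO2 the macrophage-like cells held 11.2% to 50.9% for the 8 genes with UMIs there, and 0 UMIs of *Krt19* and *Cldn4*. At least 2-fold higher in neuroendocrine-like than in macrophage-like cells were all 10 genes in TKO1, beside 23.0% of genes, and 7 of the 9 with 10 UMIs in TKO2, all but *Cdh1* and *Cldn4*, beside 19.8%. *Scg5* was at 26.1% there and *Chgb* at 9.03%. The UMIs in TKO1 macrophage-like cells were uneven, as 61.7% of 81 such cells held none of the 9 genes other than *Cdh2* at 1000 UMIs and 13.6% held 5 or more. Scrublet called no doublet in either tumor, and the part of doublets in these values was not tested.

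The share of cells with a UMI showed the same order at equal depth. Each cell was thinned to 1000 UMIs, which left 1661 cells of TKO1 and 3019 of TKO2 and left out 508 and 360 shallower ones; median depths before thinning were 1464 and 2107 UMIs. A *Krt18* UMI was held by 90.8% (89.3 to 92.1) of cells in TKO1 and 14.1% (12.9 to 15.4) in TKO2, against 21.0% and 5.31% of macrophage-like cells. For *Krt8* the shares were 72.2% and 22%, against 9.88% and 6.19%. For *Krt7* they were 83.6% and 33.2%, and for *Epcam* 68.4% and 29.5%. Each of these shares was above that of macrophage-like cells of the same tumor, whose shares for *Krt7* were 17.3% and 5.31% and for *Epcam* 16.0% and 6.19%.

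*Cdh1* was detected in 22% of thinned cells of TKO1 and 1.66% (1.23 to 2.18) of those of TKO2, the latter beside 0.885% (0.0224 to 4.83) of macrophage-like cells. *Cldn3* was detected in 42.4% and 13.1%, against 9.88% and 4.42% of macrophage-like cells, and *Cldn7* in 37.5% and 10.6%, against 4.94% and 2.65%. *Cldn4* was detected in 9.03% and 0.530%, the latter beside 0 of 113 macrophage-like cells. *Krt19* was held by 4.21% (3.30 to 5.29) of cells in TKO1 and 0.0994% in TKO2, where 0 of 113 macrophage-like cells held one, which allows up to 2.65% at 3 cells and 3.21% by the exact interval. *Cdh2* was held by 5.66% (4.60 to 6.88) and 4.47% (3.76 to 5.27). Without thinning the shares for *Krt18* were 93.4% and 23.2%, and those for *Cdh2* were 7.51% and 9.91%, in the reverse order, so no order is drawn for *Cdh2*.

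Among the 5 neuroendocrine-like clusters of TKO1, the highest level over the lowest ran from 1.18-fold for *Cldn7* to 5.22-fold for *Krt19*, with 2.54-fold for *Cdh1*, beside a median of 1.83-fold over genes with at least 100 UMIs. *Cldn4* ran from 43.9 to 132 CPM. *Krt18* had 3326, 3515, 2389, 2401 and 2842 CPM in clusters 0, 1, 3, 5 and 6, and *Cldn7* had 529, 477, 565, 529 and 533 CPM. *Epcam* was highest in cluster 3 (1904 CPM), which was led by the mitotic genes *Depdc1b*, *Kif20a* and *Ttk*, and lay between 1132 and 1242 CPM in the other 4. The same cluster had the lowest *Krt7* (1333 CPM), *Krt8* (1144 CPM), *Krt18* and *Krt19* (16.3 CPM). Cluster 6, led by *Igsf23*, *Nefm* and *Neurog3*, had the highest *Krt8* (2090.1 CPM), *Krt19* (84.9 CPM) and *Cldn4* (132 CPM) and the lowest *Cdh1* (120.0 CPM, 41 UMIs) and *Cldn3* (433 CPM). No gene of the 10 spanned 10-fold between its lowest and highest of these clusters, beside 2.30% of 5098 genes with at least 100 UMIs. With the unnamed cluster 2 counted, *Krt19* would pass 10-fold, at 179 CPM there against 16.3 CPM in cluster 3.

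TKO2 was divided. *Epcam* had 725, 522, 724 and 1166 CPM in clusters 0, 4, 5 and 7 and 75.4, 80.6, 179.6 and 114 CPM in clusters 1, 2, 3 and 6. *Krt8* had 809.8, 559, 362 and 413 CPM in the former 4 clusters and 46.5, 25.1, 36.3 and 63.7 CPM in the latter. *Cldn7* had 273, 208, 214 and 264 CPM and 8.26, 8.72, 17.1 and 12.5 CPM. For each of these genes every one of clusters 0, 4, 5 and 7 lay above every one of the others. Of the 8 genes with at least 100 UMIs in TKO2, 7 spanned at least 10-fold over its clusters, all but *Cdh2*, beside 4.63% of 6753 genes.

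Summed over the 9 genes other than *Cdh2*, the TKO2 clusters stood at 282, 378, 406 and 466 CPM and then, after a gap of 5.43-fold, at 2529.5, 2869, 3297 and 3862 CPM; the next largest step between neighbors was 1.34-fold. The gap put 1658 cells (49.1%) below it and 1721 above it. Clusters of TKO1 ran from 8317 to 10157.5 CPM with no step over 1.16-fold. A largest gap of 4.84-fold to 7.09-fold in TKO2 was also found at resolutions of 0.4 and 1.2, with the listed genes kept in the clustering, and with cells of more than 200 genes, where 62.4% of cells lay below it. The clusters are thus called low and high here; since the 9 genes define this split, their values across it are a description.

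Across it, *Cldn7* had 12.2 CPM in the low clusters together and 239 CPM in the high ones, a log2 ratio of high over low of 4.29 (3.88 to 4.73). *Krt8* had 42.0 and 555 CPM (3.73, 3.5 to 3.96), and *Krt18* had 34.3 and 328 CPM (3.26, 3.01 to 3.52). *Cdh1* had 13 UMIs (3.12 CPM) and 120 UMIs (33.4 CPM), a ratio of 3.42 (2.59 to 4.37), and *Cldn4* had 5 and 40 UMIs (3.22, 1.87 to 4.91). *Krt7*, *Cldn3* and *Epcam* had the smaller ratios of 2.76, 2.85 and 2.66. *Cdh2* went the other way, at 49.0 to 70.6 CPM in the low clusters and 29.8 to 46.7 CPM in the high ones, with no overlap, as for 6.79% of genes (11.3% lay wholly above), and a log2 ratio of -0.84 (-1.16 to -0.52). *Krt19* had 2 and 4 UMIs, too few to place.

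In the low clusters several of these levels could not be told from the background of the same library. Macrophage-like cells of TKO2 had 61.1 CPM (33.4 to 102) of *Krt8*, 30.5 CPM (12.3 to 62.9) of *Krt18*, 52.4 CPM (27.1 to 91.5) of *Cldn3* and 13.1 CPM (2.70 to 38.3) of *Cldn7*. No low cluster had a ratio to them above 0 (log2, whole interval) for *Krt8*, *Krt18*, *Cldn3*, *Cldn7*, *Cdh1*, *Cldn4* or *Krt19*, and in cluster 2 *Krt8* was below them. *Krt8*, *Krt18* and *Cldn3* were otherwise not told apart from background there, on 14, 7 and 12 macrophage-like UMIs. A higher level is not excluded, as for *Krt18* in cluster 6 (log2 ratio 0.81, -0.35 to 2.20). For *Cldn7*, *Cdh1*, *Cldn4* and *Krt19* the macrophage-like cells held only 0 to 3 UMIs, so these could not be placed against the background. Above it in low clusters were *Cdh2* in all 4, *Krt7* in clusters 1, 3 and 6 (log2 ratios of 1.02, 1.01 and 0.77) and *Epcam* in clusters 3 and 6 (1.46 and 0.80). In the high clusters the intervals lay above 0 in all 4 clusters for *Epcam*, *Krt7*, *Krt8*, *Krt18*, *Cldn3* and *Cldn7*.

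**Figure D2:**
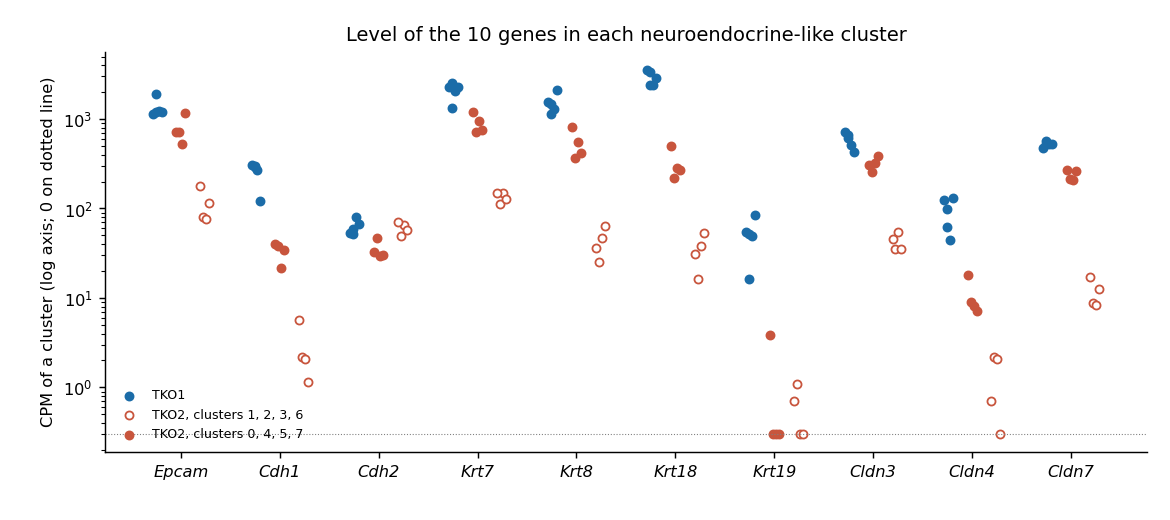
CPM on a log axis of each gene in each neuroendocrine-like cluster of TKO1 (5 clusters) and TKO2 (8 clusters, open circles for clusters 1, 2, 3 and 6); a cluster with 0 UMIs sits on the dotted line. Clusters 1, 2, 3 and 6 lie below clusters 0, 4, 5 and 7 for 8 genes, and above them for Cdh2.

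By point values, even the high clusters of TKO2 did not reach TKO1 for 6 of the 10 genes under either scaling. Every cluster of TKO1 was above every cluster of TKO2 for 8 of the 10 genes, beside 14.6% of 12723 genes, and 0 were below, beside 6.39%. The exceptions were *Epcam* and *Cdh2*. With TMM factors the count was 6, without *Krt7* and *Cldn3*, beside 9.11% above and 12.2% below. The lowest TKO1 cluster of *Epcam* (1132 CPM) and the highest TKO2 cluster, number 7 (1166 CPM), differed by a log2 ratio of -0.04 (-0.17 to 0.09). For *Krt18* the nearest clusters still differed by 2.26 (2.12 to 2.41) and for *Cdh1* by 1.57 (0.92 to 2.23). For *Krt7* they differed by 0.17 (0.04 to 0.30), for *Krt8* by 0.50 (0.35 to 0.64), and for *Cldn3* by 0.18 (-0.12 to 0.47), an interval that holds 0. *Cldn7* differed by 0.81 (0.59 to 1.02). *Cldn4* differed by 1.27 (0.31 to 2.23, 22 and 19 UMIs) and *Krt19* by 2.08 (0.29 to 4.21, 10 and 4 UMIs). TMM factors, which took the median of all genes from 0.36 to 0.01, lower these ratios too. The intervals of *Krt8*, *Krt19* and *Cldn4* begin below 0.36, so their order with TMM factors is not shown to be beyond counting error.

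Counted per cell, the 9 genes together gave a mean of 9.69 UMIs of 1000 in neuroendocrine-like cells of TKO1 and 1.82 in those of TKO2. In TKO1, 0.181% (0.0373 to 0.527) of cells had none. In TKO2, 42.9% (41.2 to 44.7) had none and 12.8% had 5 or more. Cells with none made up 73.4% to 81.0% of each low cluster and 6.32% to 10.6% of each high cluster, against 81.4% (73.0 to 88.1) of macrophage-like cells. The variance over the mean, 1 for counting error alone, was 1.78 in TKO1 and 2.85 in TKO2.

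**Figure D3:**
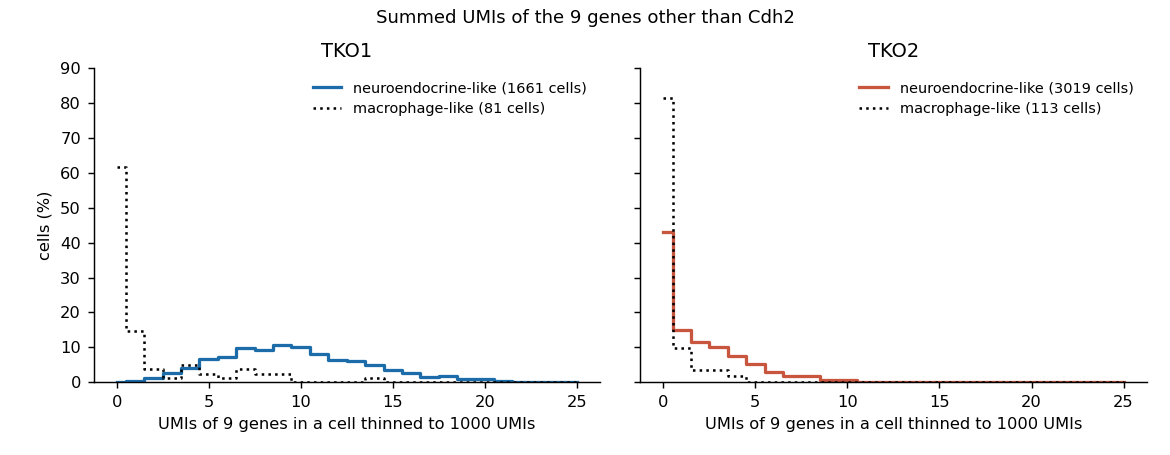
Percent of cells (y axis) with a given number of UMIs of the 9 genes other than Cdh2 (x axis), after thinning to 1000 UMIs, for neuroendocrine-like (solid) and macrophage-like (dotted) cells. TKO1 tumor cells centre on a mean of 9.69 UMIs, while 42.9% of TKO2 tumor cells hold none.

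Correlation across cells was computed at this fixed depth. In TKO1 the 45 pairs of genes had a median Pearson's r of 0.0108, from -0.0472 to 0.123 over 1661 cells, and 6 pairs lay above the 99th percentile of all gene pairs (0.0680). The highest was the filament pair *Krt8* and *Krt18*, followed by *Krt7* and *Krt18* (0.105). Over the same 45 pairs the median in TKO2 was 0.0327 (-0.0366 to 0.282). All 10 genes reached a mean of 0.05 UMIs a cell in TKO1. In TKO2, 6 genes did, namely *Epcam*, *Krt7*, *Krt8*, *Krt18*, *Cldn3* and *Cldn7*. Their 15 pairs had a median r of 0.153 (0.132 to 0.282) over 3019 cells, and all 15 lay above the 99th percentile of all pairs (0.0514). The highest were *Krt7* with *Krt8* (0.282) and *Krt8* with *Krt18* (0.278).

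After subtraction of cluster means the 15 pairs in TKO2 had a median of 0.0432 (0.0161 to 0.156), with *Krt8* and *Krt18* still highest. The correlation in TKO2 was thus for the most part one between its clusters. In TKO1 the same step left the median at 0.0106 and that of *Krt8* and *Krt18* at 0.111. A *Krt18* UMI was found in 29.8% (26.3 to 33.4) of TKO2 cells with a *Krt8* UMI and in 9.64% (8.48 to 10.9) of those without. In TKO1 these shares were 91.8% (90.1 to 93.3) and 88.1% (84.8 to 90.9). *Cdh2* had r between -0.0366 and 0.00635 with the other 9 genes in TKO2. The cells of a tumor share 1 library and sparse counts, so these values are descriptions, and weak ones are no finding.

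The genes most like each of the 10 across cells were taken at the same depth. In TKO2, *Cd9*, a tetraspanin of the cell surface, had the highest r with 5 of the 6 more abundant genes (*Krt8* 0.345, *Krt7* 0.321, *Epcam* 0.288, *Cldn7* 0.208, *Cldn3* 0.16) and ranked 2 for *Krt18* (0.251, after *Krt8*). *Spint2*, an inhibitor of epithelial serine proteases, ranked 3 for *Epcam* (0.194) and 2 for *Cldn7* (0.194), and *Tmem158* ranked 2 for *Krt7* (0.3). In TKO1 the highest values were lower. *Epcam* was nearest to *Hist1h2bc* (0.190), *Pttg1* (0.164) and *Cdca8* (0.151), and the latter pair are genes of mitosis. *Krt7* was nearest to *Calca* (0.159) and *Cd9* (0.128), and *Krt18* to *Resp18* (0.161), *Aldoa* (0.16) and *Calca* (0.158). For *Cldn3* and *Cldn4* the first was *Ppp1r15a*, a gene of the stress response (0.12 and 0.113).

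**Figure D4:**
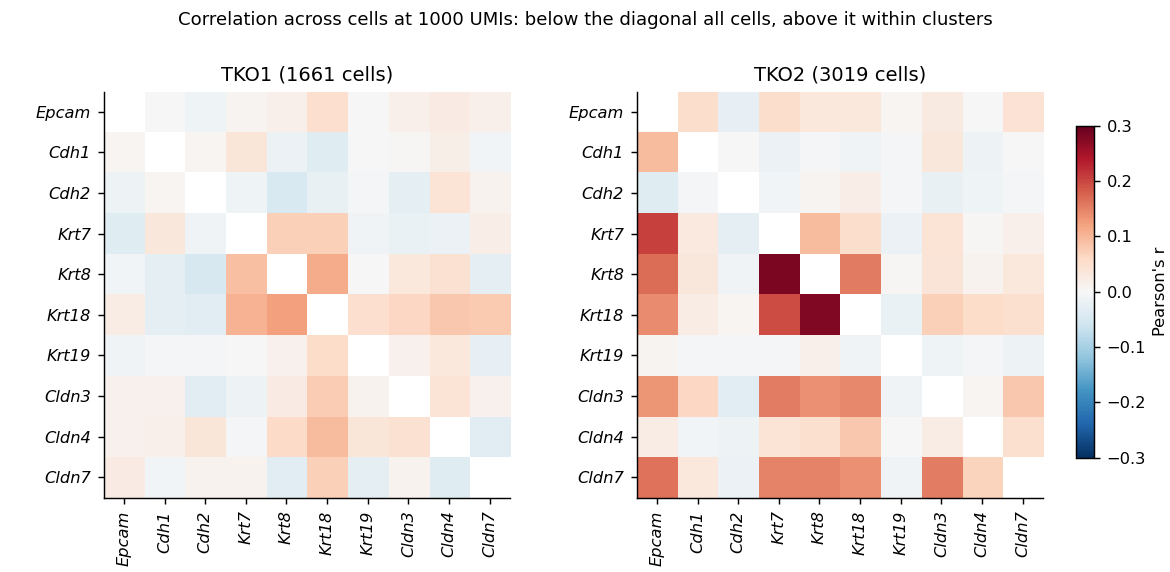
Pearson's r between the 10 genes across neuroendocrine-like cells thinned to 1000 UMIs, over all cells (below the diagonal) and after subtraction of cluster means (above it). In TKO2 the pairs of Epcam, Krt7, Krt8, Krt18, Cldn3 and Cldn7 are at 0.132 to 0.282 below the diagonal and 0.0161 to 0.156 above it, and in TKO1 no pair passes 0.123.

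In the club-like cells of TKO1, secretory cells of the airway lining that were marked by *Scgb1a1* (252510 CPM), the 10 genes were in another proportion. *Krt19* had 612 CPM (508 to 731) there and 49.2 CPM in neuroendocrine-like cells, a log2 ratio of 3.64 (3.29 to 3.99), and was the only one of the 10 at least 2-fold higher. At least 2-fold lower in club-like cells were 6 genes, beside 27.0% of 11431 genes lower and 8.06% higher. The median over all genes was -0.37, and *Scgb1a1*, at 252510 of each 1000000 UMIs, lowers the CPM of every other gene there. The count of 6 is not relative to that median. Relative to it, *Epcam* (-1.07) and *Cdh1* (-1.01) would fall short of 2-fold, and *Krt18* (-0.44) lay close to it. Club-like cells held 3 other markers of type 2 and 2 of type 1 alveolar cells at 4-fold, beside 8 club markers.

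The other type II and type I keratins were lower or near level in club-like cells. *Krt7* had 728 CPM (614 to 858) against 2124 CPM (-1.54, -1.79 to -1.31), *Krt8* had 541 CPM (444 to 654) against 1470.0 CPM (-1.44, -1.73 to -1.17), and *Krt18* had 2221 CPM (2018 to 2438) against 3018 CPM (-0.44, -0.58 to -0.30). *Epcam* had 627 CPM against 1319.7 CPM (-1.07, -1.34 to -0.82) and *Cdh1* 137 CPM against 275 CPM (-1.01, -1.62 to -0.46), both near the 2-fold limit. *Cdh1* was just short of that limit at resolution 0.4 (-0.96) and with the list genes kept in the clustering. *Cdh2* had 3 UMIs (15.2 CPM), a level like that of macrophage-like cells (14.1 CPM, 2 UMIs). Of the claudins, *Cldn3* had 890.2 CPM (764 to 1032), above the tumor cells (0.51, 0.28 to 0.74), while *Cldn7* had 354 CPM (-0.55, -0.92 to -0.21) and *Cldn4* had 7 UMIs (35.4 CPM, -1.43, -2.75 to -0.37). The ratio of *Krt18* to *Krt8* UMIs was 4.10 (3.31 to 5.12), against 3.20 (2.02 to 5.23) in macrophage-like cells. Macrophage-like cells had 21.2 CPM of *Cldn4* (3 UMIs), 304 CPM of *Krt7* and 56.5 CPM of *Cdh1*, which are 59.8%, 41.7% and 41.4% of the club-like levels. The part of free RNA in them was not tested.

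*Krt19* in tumor cells of TKO1 stood closer to its club-like level than the club markers *Scgb1a1*, *Scgb3a2* and *Cyp2f2* did. Not every listed club marker was like these. *Aldh1a1* had 15.2 CPM in club-like and 27.2 CPM in neuroendocrine-like cells (3 and 89 UMIs), and *Muc5b* had 20.2 and 2.75 CPM (4 and 9 UMIs). The level of *Krt19* in neuroendocrine-like cells was 8.03% of that in club-like cells, while those of *Scgb1a1*, *Scgb3a2* and *Cyp2f2* were 0.143%, 0.167% and 0.121%. At 1000 UMIs, 43.5% (33.2 to 54.2) of 92 club-like cells held a *Krt19* UMI, 4.21% of neuroendocrine-like cells and 0 of 81 macrophage-like cells. A count of 0 there allows up to 3.70% at 3 cells and 4.45% by the exact interval, so at this depth the share in neuroendocrine-like cells was not distinguishable from that background. Without thinning, neuroendocrine-like cells had 161 UMIs of *Krt19* and macrophage-like cells 0. The interval of the log2 ratio between them lay above 0 in clusters 0, 1, 5 and 6 and held 0 in cluster 3 (10 UMIs).

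In TKO2 no cluster was club-like. Cluster 9, which carried club markers (*Cbr2*, *Scgb1a1* and *Scgb3a1* led it) and neuroendocrine markers together, had higher levels than the neuroendocrine-like cells of TKO2 for 9 of the 10 genes, each at least 2-fold, beside 21.3% of 11683 genes higher and 8.63% lower. *Krt18* had 2581 CPM (2301 to 2887), a log2 ratio of 3.92 (3.74 to 4.10), *Krt19* had 177 CPM (21 UMIs), one of 7.83 (6.48 to 9.43), and *Cldn4* had 177 CPM (21 UMIs), one of 4.93 (4.11 to 5.71). *Epcam* had 916 CPM (753 to 1106), 1.15 (0.86 to 1.42), but less than cluster 7 (1166 CPM). The neuroendocrine-like cells include the low clusters. Over the highest single cluster, cluster 9 was less than 2-fold higher for *Krt7* (1539 and 1186 CPM) and *Krt8* (1034 and 810 CPM). So it was for *Cldn3* (647 and 383 CPM), *Cldn7* (479 and 273 CPM) and *Cdh1* (75.7 and 40.3 CPM). *Krt18*, *Krt19* and *Cldn4* stayed over 2-fold above their highest clusters (499, 3.84 and 18.3 CPM). *Cdh2* had 4 UMIs, with an interval that holds 0. The ratio of *Krt18* to *Krt8* in cluster 9 was 2.50 (2.02 to 3.10), outside the range of the TKO2 neuroendocrine-like clusters (0.512 to 0.863). It was nearer to TKO1, with 2.05 in neuroendocrine-like cells and 2.60 in the unnamed cells there. These are 67 cells of 1 library, and whether some are doublets was not tested.

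The wider families and junctions were read from 9 lists of related genes, in the neuroendocrine-like cells. Beyond the 4 keratins, only 2 of 16 other keratins had 10 UMIs over both tumors. *Krt10* had 40.0 CPM in TKO1 and 51.4 CPM in TKO2 (log2 ratio -0.36), and 10 of the 16, the basal and squamous keratins *Krt5*, *Krt14* and *Krt6a* among them, had 0 UMIs in both. Of 5 other claudins measured, 1 was at least 2-fold higher in TKO1 and 2 were lower, beside 30.2% and 11.7% of all genes. One of the lower genes, *Cldn11*, had 1 and 14 UMIs, with an interval that holds 0 (-7.97 to 0.15). Their median log2 ratio of -0.38 is that of *Cldn23* (-0.95 to 0.16), an interval that holds 0, so no shared direction is drawn for them. *Cldn6*, a claudin of embryonic epithelium, was lower in TKO1 (17.7 against 42.5 CPM, -1.26, -1.69 to -0.86). In both tumors it differed between clusters, from 1.27 to 84.9 CPM in TKO1 and from 4.36 to 107 CPM in TKO2, where it was at 6.00 CPM in the low clusters and 85.0 CPM in the high ones.

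Other tight junction genes were at least 2-fold higher in TKO1 for 6 of 13 and lower for 0, with a median of 0.89, and for 4 with TMM factors. *Crb3*, of the apical polarity complex, had 159 and 34.9 CPM (2.18, 1.97 to 2.40), and the junction plaque protein gene *Cgn* had 33.0 and 7.61 CPM (2.12, 1.65 to 2.60), while *Pard3* had -0.45 (-0.92 to 0.01). Adherens junction genes were higher for 3 of 10 (2 with TMM factors) and lower for 1, with *Jup* (plakoglobin) at 149 and 37.5 CPM (1.99) and *Ctnna1* (alpha-catenin) at 94.4 and 43.7 CPM (1.11). All 9 measured desmosome genes were higher (7 with TMM factors), with a median of 1.75, among them *Dsp*, which anchors keratin filaments to the desmosome, at 111 and 19.7 CPM (2.49, 2.22 to 2.78), and *Dsg2*, a desmosomal cadherin, at 24.1 and 4.38 CPM (2.46, 1.86 to 3.09). Other epithelial surface genes were higher for 10 of 12 and lower for 1, with a median of 1.90, led by *Tspan1* (436 and 17.0 CPM, 4.68) and the mucin gene *Muc1* (144 and 9.93 CPM, 3.86). These counts stand beside 30.2% and 11.7% of all genes, and those with TMM factors beside 2833 genes higher and 2266 lower of 12723.

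Factors that act on epithelial genes differed too. Of 13 epithelial transcription and splicing factors, 9 were at least 2-fold higher in TKO1 and 0 lower (median 1.14). With TMM factors 5 were higher and 1 lower (median 0.78). They included the ETS factor *Ehf* at 54.4 CPM in TKO1 and 6 UMIs in TKO2 (6.14, 4.98 to 7.60) and the repressor of mesenchymal genes *Ovol2* at 26 and 4.25 CPM (2.61, 2.01 to 3.24). Of 5 measured mesenchymal genes and epithelial repressors, 1 was higher and 3 lower, with a median of -1.76. That median is the ratio of *Sparc* (2 and 16 UMIs, -4.92 to 0.33), an interval that holds 0. All TKO2 UMIs of *Sparc* and most of those of *Vim* were in cluster 6. *Zeb2*, a repressor of *Cdh1*, had 218 UMIs in TKO2 (28.1 CPM) and 0 in TKO1, so it was at least 30.7-fold higher in TKO2 with TKO1 at the limit of 3 UMIs. *Zeb1*, of the same family, had 33.6 CPM in TKO1 and 11.9 CPM in TKO2 (1.5, 1.09 to 1.92), the opposite direction. Neural adhesion genes were higher for 4 of 10 and lower for 1 (median 0.98), and for 2 and 1 with TMM factors, with *Chl1*, a neural cell adhesion gene, at 25.7 and 11.9 CPM (1.11). These counts, too, stand beside 30.2% of all genes higher and 11.7% lower. Those with TMM factors stand beside 2833 genes higher and 2266 lower of 12723.

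**Figure D5:**
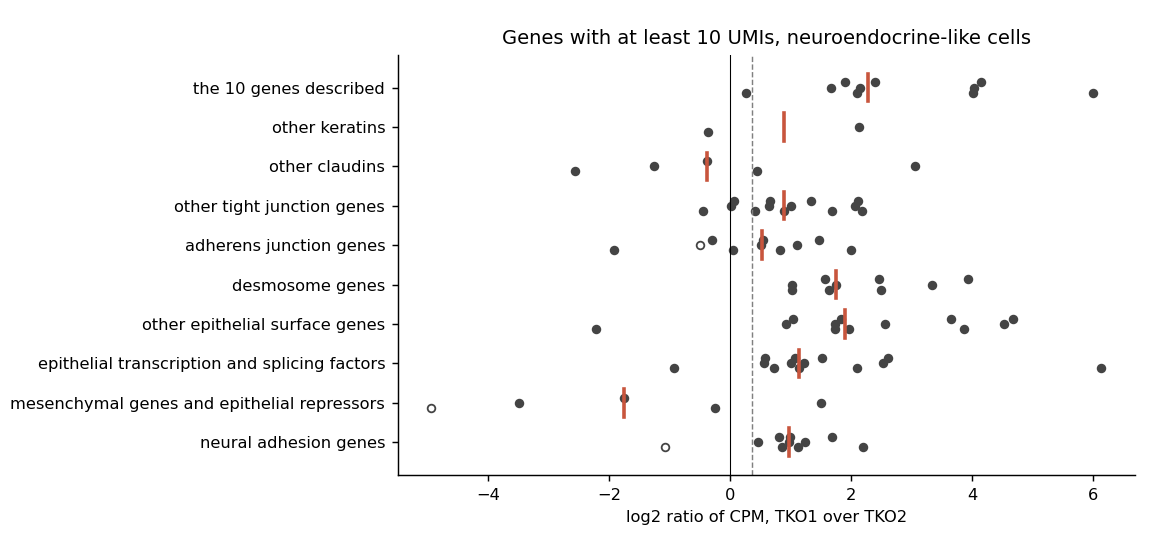
The log2 ratio of CPM of TKO1 over TKO2 in neuroendocrine-like cells (x axis) for each gene with at least 10 UMIs, by list; open circles take a tumor with 0 UMIs at the limit of 3 UMIs, bars mark list medians and the dashed line the median of all genes (0.36). All 9 desmosome genes lie to the right, and the mesenchymal genes and repressors have a median of -1.76, that of Sparc, whose interval holds 0.

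The same lists were set against the low and high clusters of TKO2, a split made from the 9 genes and not from the lists. Of 11 epithelial transcription and splicing factors with 10 UMIs there, 9 were at least 2-fold higher in the high clusters and 0 lower, beside 12.6% of 11555 genes higher and 5.94% lower. *Ovol2* had 2 UMIs in the low clusters and 31 in the high ones (4.17, 2.19 to 7.28). Higher were also 7 of 8 desmosome genes (*Dsp* 6.00 and 35.7 CPM, 2.57, 1.94 to 3.25), 8 of 11 epithelial surface genes (*Tspan1* 0.960 and 35.7 CPM, 5.22) and 7 of 12 tight junction genes (*Crb3* 6.48 and 68.0 CPM, 3.39). None of these 3 lists had a lower gene. Of 4 other claudins measured there, 2 were also higher (*Cldn6* and *Cldn23*) and 0 lower.

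Of the mesenchymal genes and epithelial repressors, all 5 measured were at least 2-fold lower in the high clusters, but cluster 6 alone held 47 of the 50 low-side UMIs of *Vim* and all 16 of *Sparc*, and the interval for S100a4 held 0. Without cluster 6, chosen after its values were seen, 3 genes had at least 10 UMIs and all 3 were lower (*Zeb1*, *Zeb2* and S100a4). *Zeb2* had 35.1 to 49.9 CPM in the 4 low clusters and 4.30 to 12.5 CPM in the 4 high ones, a log2 ratio of high over low of -2.32 (-2.91 to -1.78). *Zeb1* had 14.2 to 26.9 CPM and 0 to 6.84 CPM (-2.14, -3.05 to -1.33). For both, the low clusters lay wholly above the high ones. *Zeb1* was thus lower where the 9 genes were higher within TKO2, but higher where they were higher between the tumors. Neural adhesion genes were higher for 2 of 10 and lower for 1, or for 0 without cluster 6, beside 12.6% of all genes higher and 5.94% lower.

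Of the 16 neuroendocrine markers, 6 were at least 2-fold higher in the high clusters and 0 lower, beside 12.6% of all genes higher and 5.94% lower. *Chga* had 56.9 CPM in the low and 143 CPM in the high clusters (1.33, 1.11 to 1.56), and *Uchl1* 455 and 569 CPM (0.32). Clusters led by mitotic genes were on both sides, number 3 among the low and number 7 among the high. Chosen after its values were seen, *Neurod1*, a neural factor, had 89 UMIs in the low and 6 in the high clusters (-3.68, -5.16 to -2.50).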

How the data were processed

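The deposited matrices hold UMI counts per gene and barcode, made by the authors with Cell Ranger on mm10 per the submitters' processing notes, which also name Seurat; versions were not given in the sources used here. The limit on detected genes and the numbers of variable genes and components follow the study's methods, and its mitochondrial limit was read as an upper one. Of 27998 gene identifiers, 27645 matched GENCODE M21 (GRCm38). Promoter windows came from RefSeq (GRCm38.p6).

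Barcodes with more than 500 detected genes were kept, and none passed 10% mitochondrial counts. Each tumor was clustered in Seurat 5.3.0 (R 4.3.3; 1000 variable genes, 10 components, resolution 0.8) without the 10 genes and 128 related genes among the variable genes. A cluster was named from at least 3 markers of a type at 4-fold (neuroendocrine markers at 2-fold). One that met both the neuroendocrine and another definition stayed unnamed. One whose top 10 genes held markers of another class and none of its own also stayed unnamed, a step added after the data were seen. Scrublet (scanpy 1.11.5) called 0 cells in either tumor, and its calls are not relied on. UMIs were summed over the cells of a class. CPM values have exact Poisson intervals, log2 ratios exact conditional binomial intervals, and shares Clopper-Pearson intervals, all at 95% (scipy 1.17.1, numpy 2.4.6, pandas 2.3.3, Python 3.11.15). A count of 0 was set at 3 UMIs in ratios, and genes with at least 10 UMIs over both sides were compared. For shares and correlation, cells were thinned to 1000 UMIs (seed 1). Steps were tested on simulated data. No test between tumors was possible with 1 library each.

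The 10 genes and the 9 lists of related genes were chosen with earlier results of these data known. From each list, the 2 genes with the largest log2 ratio each way among those that reached 20 CPM in either tumor were named, otherwise the gene with the most UMIs; for each of the 10 genes, the 3 most correlated ones were taken. Other names were chosen after their values were seen. Alternatives covered edgeR 4.0.16 TMM factors, totals, cell and gene filters, clustering, thinning depth, doublet scores and the added naming step.

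Values of some genes of these lists are not reported here.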

Additional observations from a re-analysis of the deposited data

How the results depend on the processing

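The count of 9 of the 10 genes at least 2-fold higher in neuroendocrine-like cells of TKO1 was found under all 12 alternatives run. Their median log2 ratio of 2.27 was 1.91 with TMM factors, 2.05 with mitochondrial and ribosomal protein genes left out of the totals, 2.79 with barcodes of more than 200 detected genes and 2.47 with more than 1000. The first 2 differ in the total alone, and for the other 2 the cause was not tested. *Cdh2* was reversed with TMM factors, at -0.090. For single genes, 77 of 110 ratios stayed within the interval of the value reported and 32 moved outside it in the same direction. The 50 ratios of club-like over neuroendocrine-like cells all stayed within it, and the count of 6 lower genes was 5 with the list genes kept in the clustering and at resolution 0.4, where *Cdh1* was not 2-fold lower.

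Of the listed genes, 52 passed 2-fold in either direction and 41 did with TMM factors. In TKO2 without cluster 6, a setting added after the data were seen, lower adherens junction genes went from 2 to 0. Thinning raised the count of genes with a share at least 2-fold higher in TKO1 to 9, from 7 without it. The median correlation of 45 pairs ran from 0.00735 to 0.0117 in TKO1 and from 0.0061 to 0.0504 in TKO2. Without the filter on low counts, 4774 of 16222 genes were at least 2-fold higher in TKO1 and 1577 lower. With barcodes of more than 200 genes no cluster was club-like, and 1773 cells of TKO1 and 814 of TKO2 stayed unnamed. With 1 library per tumor no replicate could be left out. No paired analysis was possible because each tumor has 1 library and no result comes from a test. Depth limits *Krt19* and *Cldn4* in TKO2, and *Cdh1*, *Cdh2* and *Cldn4* in club-like cells.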

Other observations

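The 821 cells of the TKO1 clusters 2 and 4, which stay unnamed, also held the 10 genes, some at higher levels than the neuroendocrine-like cells. Together they had 1194 CPM of *Epcam*, 296 CPM of *Cdh1*, 2129 CPM of *Krt7*, 1589 CPM of *Krt8* and 589 CPM of *Cldn7*. *Krt18* had 4126 CPM (3998 to 4257) against 3018 CPM, *Cldn3* 840.4 CPM (783 to 901) against 623 CPM, *Cldn4* 144 CPM (121 to 170) against 95.3 CPM, and *Krt19* 147 CPM (124 to 173) against 49.2 CPM. *Krt18* and *Krt19* were higher in cluster 2 (4425 and 179 CPM) than in cluster 4 (3651 and 95.1 CPM), while *Cldn3*, *Cldn4* and *Cldn7* were higher in cluster 4 (1029.6, 174 and 723 CPM) than in cluster 2 (721, 125 and 504.2 CPM).

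Barcodes with at most 500 detected genes were in no comparison. In TKO1 there were 1321 of them with 718380 UMIs, and they had 954 CPM of *Epcam*, 2949.7 CPM of *Krt18*, 741 CPM of *Cldn3* and 135 CPM of *Krt19*. In TKO2 there were 248 with 186149 UMIs, and they had 429.8 CPM of *Epcam*, 333 CPM of *Krt18*, 269 CPM of *Krt8* and 118 CPM of *Cldn7*.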
